A study of Homo sapiens with 12 samples.

Results

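Hepatocytes make most of the protein in blood plasma. The 10 transcripts described here encode abundant plasma proteins of that origin: ALB, TTR, RBP4, TF, HP, HPX, SERPINA1, SERPINF1, AMBP and AHSG. They were taken by gene name from a table of 58884 genes, and each name matched 1 row. Levels were measured by RNA sequencing in HCC-LM3 and Huh-7, human liver cancer cell lines, as METTL5 knockout (KO) cells infected with a guide RNA against METTL5 and as untreated wild-type (WT) cells. The groups were HCC-LM3 KO, HCC-LM3 WT, Huh-7 KO and Huh-7 WT, with 3 libraries each. METTL5 is a methyltransferase that adds a methyl group to an adenosine of the small-subunit ribosomal RNA. No control guide, clone or separate culture was named for any group, so p-values reflect only how far these libraries scattered, possibly for technical reasons, and the infection itself cannot be told apart from the loss of METTL5.

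Plasma proteins of the liver enter the secretory pathway as they are translated and leave the cell through the Golgi. Their genes are read through promoters and enhancers bound by liver-enriched factors such as HNF4A, the FOXA proteins and C/EBP proteins, and the factors are needed in combination. ALB is the usual marker of hepatocyte identity, and liver tumours and their cell lines keep this programme to very different extents.

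The upstream sequences of ALB and RBP4 are shown because these genes span the pattern between the lines: ALB had transcript in Huh-7 and next to none in HCC-LM3, and RBP4 had transcript in both lines. The choice was made with the levels known. Windows of 250 bases before to 50 bases after a RefSeq start (GRCh38.p14) were found for 7 of the 10 members, 11 windows in all, and RBP4 has 3 starts in that table. Capitals mark the C/EBP motif TTGCNNAA, read on either strand, and the TATA box TATAAA.
ALB, chr4:73404037-73404336, plus strand: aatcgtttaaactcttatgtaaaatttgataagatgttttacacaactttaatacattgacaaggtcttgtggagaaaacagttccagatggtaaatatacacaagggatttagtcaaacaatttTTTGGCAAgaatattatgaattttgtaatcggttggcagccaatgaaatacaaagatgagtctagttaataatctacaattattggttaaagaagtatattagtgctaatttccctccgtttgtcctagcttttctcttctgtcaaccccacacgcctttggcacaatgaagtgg
RBP4, downstream start, chr10:93601186-93601485, minus strand: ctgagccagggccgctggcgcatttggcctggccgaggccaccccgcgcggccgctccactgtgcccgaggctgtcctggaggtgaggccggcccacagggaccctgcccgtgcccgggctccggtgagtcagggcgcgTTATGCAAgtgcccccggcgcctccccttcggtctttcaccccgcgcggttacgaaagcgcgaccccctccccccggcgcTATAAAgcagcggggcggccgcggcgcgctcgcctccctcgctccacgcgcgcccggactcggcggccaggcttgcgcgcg
The C/EBP motif began 125 bases before the start in the ALB window and 111 bases before it in the RBP4 window, on the opposite strand in both. It was in 1 window each of ALB, RBP4, TF, HPX and AHSG, and it is in 10.5% of the 35116 windows of that length in the table. The RBP4 window held TATAAA 31 bases before the start, which 11.5% of all windows hold, and the ALB window held none. These are letter matches, and no binding was measured.

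The libraries held 17495280 to 26415554 counts. METTL5 had 0 counts in all 6 KO libraries, against 268, 327 and 325 counts in HCC-LM3 WT and 237, 258 and 169 in Huh-7 WT. The Huh-7 KO libraries stood apart: their counts lay on short genes, with a count-weighted mean gene length of 1698 to 1725 bases, against 2731 to 2863 bases in Huh-7 WT, 3111 to 3198 in HCC-LM3 KO and 3033 to 3260 in HCC-LM3 WT. Scaling by TMM (trimmed mean of M-values), which was used for the tests, gave factors of 0.491 to 0.510 in Huh-7 KO and 1.06 to 1.10 in Huh-7 WT. With library totals alone, the median gene of the Huh-7 comparison moved from -0.30 to -1.40 on the log2 scale, a shift of -1.10. In HCC-LM3, WT replicate 1 differed from the other WT libraries, with a chi-square per degree of freedom of 38.6 and 31.8 against WT 2 and 3, where WT 2 and 3 gave 4.25.

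The levels separated the lines. The members' TPM (a share of all transcripts that is scaled for gene length and so comparable between genes) summed to 31.4 ± 2.32 in HCC-LM3 KO and 27.7 ± 2.53 in HCC-LM3 WT, and to 8081 ± 60.0 in Huh-7 KO and 12512 ± 502 in Huh-7 WT (SD, n = 3 each). RBP4 alone made up 93.7% to 96.1% of the sum in HCC-LM3 KO and 95.7% to 97.5% in HCC-LM3 WT, against a mean of 14.9% in Huh-7 KO and 12.7% in Huh-7 WT. Of these 10 transcripts HCC-LM3 thus had little but RBP4, and Huh-7 had all of them. Because RNA was taken from whole cultures, fewer expressing cells and less RNA per cell cannot be told apart.

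**Figure D1:**
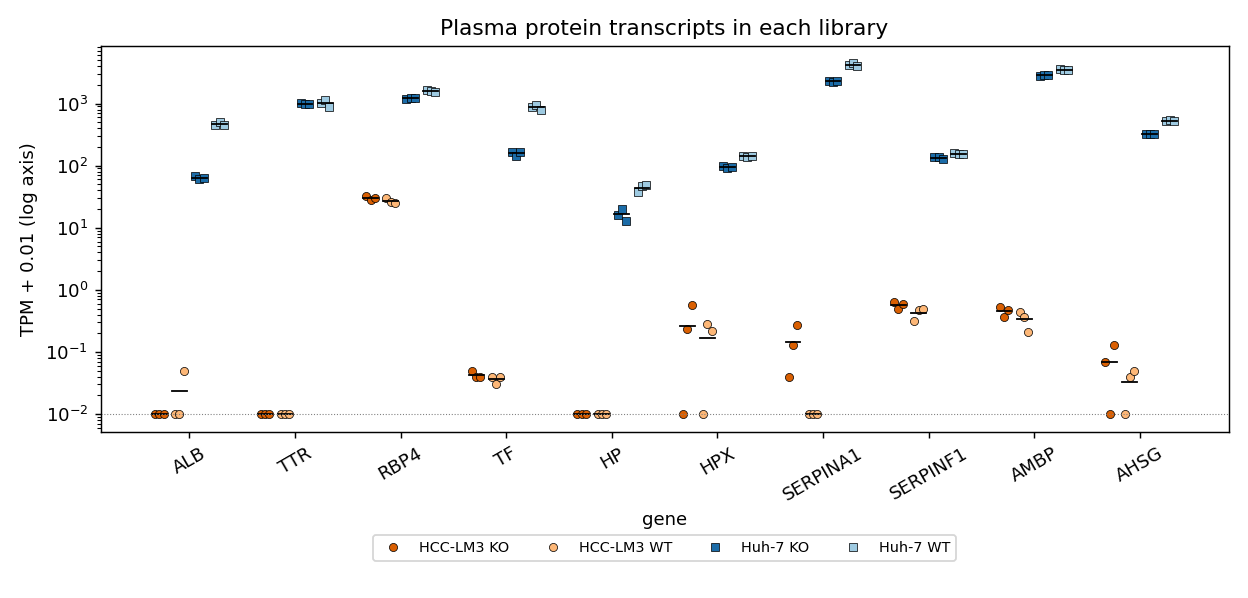
TPM of the 10 transcripts in each library, with 0.01 added so that 0 can be drawn on the log axis (dotted line); points are libraries and short lines are group means. In HCC-LM3, RBP4 sits at 24.8 to 31.8 TPM and every other member is under 1 TPM, while in Huh-7 all 10 lie above 13 TPM.

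Most hepatocyte markers outside the set were likewise near 0 in HCC-LM3. Of 11 such genes, HNF4A and CPS1 were the ones with a mean of at least 1 TPM in either HCC-LM3 group. CPS1, the entry enzyme of the urea cycle, ran the other way, with 52.7 and 79.9 TPM in HCC-LM3 KO and WT, and 0.0467 and 1.39 TPM in Huh-7 KO and WT, while TAT, a tyrosine-degrading enzyme of the liver, was under 1 TPM in all 4 groups. The list summed to 60.5 to 75.2 TPM in HCC-LM3 KO and 72.5 to 111 TPM in HCC-LM3 WT. It summed to 9492 to 9604 TPM in Huh-7 KO and 8485 to 9782 TPM in Huh-7 WT. APOB, which encodes the core protein of liver lipoproteins, and ASGR2, part of the hepatocyte asialoglycoprotein receptor, were at 0 in all 6 HCC-LM3 libraries. HNF4A, a master regulator of hepatocyte genes, averaged 14.7 TPM in HCC-LM3 KO and 12.7 TPM in HCC-LM3 WT, and 13.1 TPM in Huh-7 KO and 74.1 TPM in Huh-7 WT. HNF4A transcript was thus present in both lines. HCC-LM3 is labelled as a liver cancer line, and in these libraries it had ALB and most defining hepatocyte transcripts at or near 0. The bile duct keratin KRT7 averaged 418 and 394 TPM in HCC-LM3 KO and WT, and 0.0400 and 0 TPM in Huh-7 KO and WT. KRT19, another bile duct keratin, ran the other way, with 0.310 and 0.373 TPM in HCC-LM3 KO and WT, and 452 and 409 TPM in Huh-7 KO and WT. The 6 leukocyte markers summed to 48.2 to 55.8 TPM in HCC-LM3 KO and 43.9 to 46.6 TPM in HCC-LM3 WT, nearly all of it CD68, and to 23.1 to 24.8 TPM in Huh-7 KO and 46.9 to 50.5 TPM in Huh-7 WT. PTPRC, CD3E and CD163 were at 0 in all HCC-LM3 libraries, and the part of these markers in the results was not tested.

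Between the lines, HCC-LM3 against Huh-7, all 10 members were called lower in HCC-LM3 among the KO groups and among the WT groups (edgeR quasi-likelihood test, Benjamini-Hochberg adjusted p under 0.05), where 88.1% of all genes were called among KO groups (51.1% higher and 37% lower) and 82.8% among WT groups (41.8% higher and 41% lower). Most members passed the filter on low counts only through Huh-7, so these calls had to follow and support nothing. RBP4, which had at least 10 counts in every library, is the main exception, and TF had at least 10 in 5 HCC-LM3 libraries. On TMM-scaled counts RBP4 was lower in HCC-LM3 by a Huh-7 over HCC-LM3 ratio of 184 among KO groups (95% counting interval 176 to 194). Among WT groups the ratio was 97.1 (92.2 to 102). With library totals alone the ratios were 71.0 among KO groups (67.7 to 74.5) and 72.4 among WT groups (68.8 to 76.3), so the size among KO groups depended on the scaling. The log2 difference, HCC-LM3 minus Huh-7, was -7.53 (SE 0.15, adjusted p = 2.11e-30) among KO and -6.59 (SE 0.14, adjusted p = 2.98e-29) among WT groups by edgeR. Among KO groups it was -6.15 with library totals, -5.36 with GC and length offsets and -5.34 on TPM, and among WT groups -6.18, -5.84 and -5.89 in the same order, called in each fit.

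The other members reached few counts in HCC-LM3, at most 17.1 in a library, for TF. On library totals the Huh-7 over HCC-LM3 ratio of TF was 808 among KO groups (counting interval 602 to 1113). Among WT groups it was 2700 (1967 to 3816). By TMM these ratios were 2097 and 3620. TF had 380 to 531 counts per TPM in HCC-LM3 KO and 429 to 534 in HCC-LM3 WT. In Huh-7 it had 53.2 to 59.9 in KO and 31.7 to 42.5 in WT. Its counts in the lines may therefore not be of the same transcript, and the TF ratios are uncertain. Where the HCC-LM3 libraries were at 0, a floor of 3 counts per library gives a bound, computed here on library totals, on which every bound was smaller than by TMM. HCC-LM3 WT held at least 47060-fold lower SERPINA1 than Huh-7 WT. TTR was at least 9273-fold lower among KO and at least 5626-fold lower among WT groups, and HP at least 214-fold lower among KO and at least 361-fold lower among WT groups. HCC-LM3 KO held at least 1170.3-fold lower ALB than Huh-7 KO. The 1 ALB count in HCC-LM3 WT gave a Huh-7 over HCC-LM3 ratio of 61663 on library totals (counting interval 11067 to 2435560) and of 82676 by TMM (14839 to 3265510). The intervals and floors cover counting error only.

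Within HCC-LM3, KO against WT, no member with more than a handful of counts passed the test. RBP4 carries retinol from the liver into blood (ENSG00000138207, chr10:93591687-93601744, minus strand). It had 619, 458 and 619 counts in HCC-LM3 KO and 556, 482 and 395 counts in HCC-LM3 WT, or 31.8, 27.5 and 30.2 TPM in KO and 29.8, 25.6 and 24.8 TPM in WT. The groups overlapped, with WT replicate 1 as high as the KO libraries. The log2 fold change was 0.32 (SE 0.12, edgeR adjusted p = 0.0509), and over 25 alternatives it stayed positive at 0.16 to 0.50 with adjusted p between 3.29e-05 and 0.351. Without HCC-LM3 WT replicate 1 it was 0.50 with an adjusted p of 3.29e-05, and DESeq2 (adjusted p = 0.0280), limma-voom (0.0430) and a stricter filter on low counts (0.0461) also called it. The call thus turned on that library and on the test.

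SERPINA1 was the 1 member called in HCC-LM3 KO against WT, where 26.8% of all genes were called, 14% higher and 12.9% lower. It had 1, 3 and 2 counts in KO and 0 counts in each WT library, with an edgeR adjusted p of 0.0218. Both groups were at or under the floor of 3 counts, so no fold is given. The call was lost when HCC-LM3 was fitted alone and without KO replicate 2, WT replicate 2 or WT replicate 3, where no member was called. AMBP had 10, 7 and 12 counts in KO and 9, 4 and 4 in WT, and a difference of 0.84 (SE 0.42, adjusted p = 0.145) that reached 1.37 (adjusted p = 0.0253) without WT replicate 1. TF had 17.1, 11.4 and 15.9 estimated counts in KO and 16.0, 9.06 and 12.9 in WT, and SERPINF1 had 6, 4 and 5 in KO and 3, 4 and 4 in WT. Their log2 fold changes were 0.30 (SE 0.32, adjusted p = 0.545) and 0.52 (SE 0.48, adjusted p = 0.522). HPX, with 0, 5 and 6 counts in KO and 0, 3 and 2 in WT, and AHSG, with 2, 0 and 4 in KO and 0, 1 and 1 in WT, were too low for a fold. TTR and HP were at 0 in all 6 libraries, and ALB was at 0 in all but 1 count in WT replicate 3.

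Huh-7 is where the set can be compared between KO and WT with 2288 or more counts per library for every member but HP. By TMM-scaled counts, 8 members were called higher and 2 lower in Huh-7 KO, where 75% of all genes were called, 31.7% higher and 43.2% lower. The shares of all genes that were called make a call as such common here. With library totals alone the same test called 3 members higher and 5 lower, and among all genes 1993 higher and 10795 lower, against 5247 higher and 7152 lower by TMM. The members are therefore given below on several scales, together with what does not depend on scaling: their order within a library and their counts relative to ALB. Both still carry any shift with GC content or gene length.

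ALB, the most abundant protein of plasma and its carrier of fatty acids (ENSG00000163631, chr4:73397114-73421412, plus strand), fell in Huh-7 KO. It had 69.1, 61.1 and 62.7 TPM in KO, against 449, 497 and 456 TPM in WT, and every KO library lay far below every WT library. The log2 fold change was -1.49 (SE 0.10, edgeR adjusted p = 9.71e-15). It was negative and called under all 25 alternatives, from -2.86 on TPM to -0.31 with offsets for GC content alone. Among all genes ordered by TPM, ALB ranked between 1102 and 1191 in KO libraries, against 263 to 277 in WT libraries.

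TTR carries thyroxine and binds RBP4 in plasma (ENSG00000118271, chr18:31557010-31599021, plus strand). It had 1008, 981 and 980 TPM in Huh-7 KO and 1003, 1145 and 884 TPM in Huh-7 WT, so the groups overlapped on that scale. On TMM-scaled counts it rose by 1.77 (log2, SE 0.10, adjusted p = 1.11e-15). It was also higher with library totals alone (0.66, adjusted p = 6.53e-07) and with offsets for gene length and GC content (0.94, adjusted p = 1.24e-11), but not on TPM (-0.022, adjusted p = 0.869). Apart from the TPM fit, TTR was called higher under all alternatives. Its rank among the 10 members was the fourth in both groups.

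RBP4 had 1198, 1221 and 1205 TPM in Huh-7 KO and 1636, 1600.45 and 1511 TPM in Huh-7 WT, every KO library being lower. On TMM-scaled CPM (counts scaled by library size) the order was opposite, with 3253, 3360 and 3143 in KO and 1434, 1337 and 1300 in WT, that is 1.26 higher on the log2 scale (SE 0.11, adjusted p = 4.07e-12). With library totals alone it was 0.15 (adjusted p = 0.0816), with GC and length offsets -0.31 (adjusted p = 0.000183) and on TPM -0.39 (adjusted p = 0.000273). The direction for RBP4 thus depended on the scale.

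**Figure D2:**
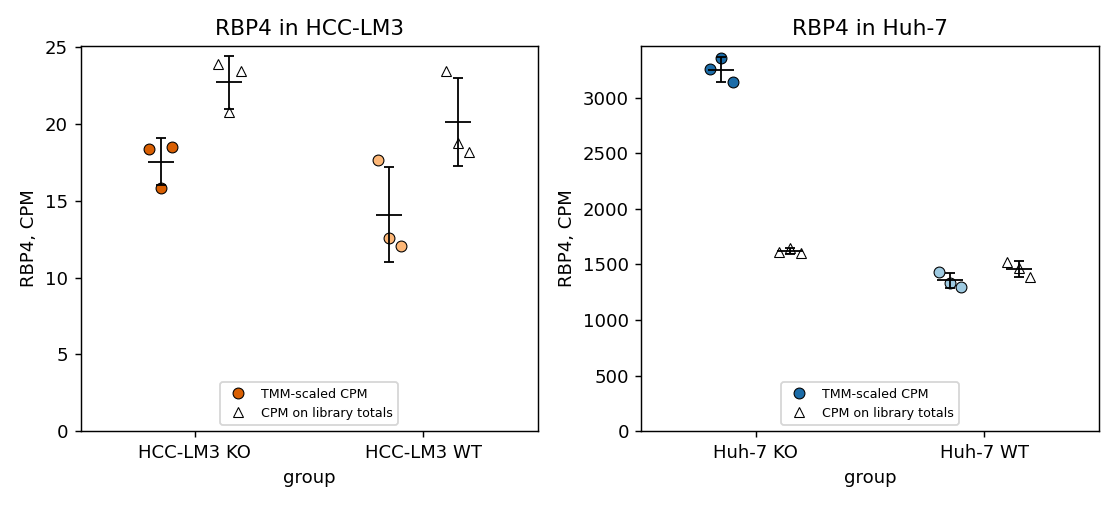
RBP4 in each library of HCC-LM3 (left) and Huh-7 (right), as TMM-scaled CPM (filled circles) and as CPM on library totals (open triangles), with mean and SD (n = 3). In HCC-LM3 the KO and WT libraries overlap on either scale; in Huh-7 the KO libraries are far above WT on TMM-scaled CPM and slightly above WT on library totals.

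TF, the iron carrier of plasma (ENSG00000091513, chr3:133745956-133796640, plus strand), had 166, 144 and 168 TPM in Huh-7 KO, against 878, 953 and 789 TPM in Huh-7 WT. The groups did not overlap. The log2 fold change was -0.48 (SE 0.10, adjusted p = 5.04e-05) by TMM, -1.59 with library totals and -2.46 on TPM, but 0.63 with GC offsets and 2.25 with GC and length offsets. Its deposited gene length was 20166 bases, far above the 1040 to 2285 bases of the other members. The offsets used that length, so its value with GC and length offsets is not comparable with those of the others. In Huh-7 its TPM was scaled by a shorter length, with 53.2 to 59.9 counts per TPM in KO and 31.7 to 42.5 in WT. ALB, at 2285 bases, had 37.4 to 46.3 in KO and 34.6 to 48.2 in WT. TF overlaps SRPRB on the same strand, which reached 2759 counts, and the part of such reads in its values was not tested.

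HP and HPX clear haemoglobin and haem from plasma. HP binds free haemoglobin (ENSG00000257017, chr16:72054592-72061055, plus strand) and was the lowest of the 10 in both Huh-7 groups, with 16.2, 19.9 and 13.1 TPM in KO and 37.3, 46.7 and 47.9 TPM in WT. All KO libraries were lower on this scale. Its log2 fold change was 0.29 by TMM (SE 0.12, adjusted p = 0.0272), and it was -0.82 with library totals, -0.54 with GC and length offsets and -1.43 on TPM. HP shares reads with its near copy HPR, whose share of the summed counts was 24.0% to 28.0% in KO and 15.1% to 18.8% in WT. Summed, HP and HPR were 0.45 higher on the log2 scale by TMM (SE 0.11, adjusted p = 0.00059). HP also overlaps TXNL4B on the opposite strand, and whether counting used strand is not given in the sources used here. HPX binds free haem (ENSG00000110169, chr11:6431049-6442617, minus strand). It had 99.99, 93.0 and 94.1 TPM in KO and 145, 140 and 144 TPM in WT, with no overlap. It rose by TMM (1.28, SE 0.11, adjusted p = 2.44e-12), but its change was 0.17 with library totals (adjusted p = 0.140). It was 0.051 with GC and length offsets (adjusted p = 0.635) and -0.58 on TPM (limma adjusted p = 0.390). The TPM fit shared its spread over all 12 libraries, with HPX at 0 to 0.55 TPM in HCC-LM3. Its p-value for HPX therefore does not measure the scatter of the Huh-7 libraries alone.

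The protease inhibitors and their relatives included the most abundant members. SERPINA1 encodes alpha-1 antitrypsin, the inhibitor of neutrophil elastase (ENSG00000197249, chr14:94376747-94390693, minus strand). It had 2277, 2212 and 2298 TPM in Huh-7 KO and 4213, 4412 and 4084 TPM in Huh-7 WT, every KO library being lower. Its log2 fold change was 0.72 by TMM (SE 0.10, adjusted p = 1.15e-07), -0.39 with library totals, -0.36 with GC and length offsets and -0.90 on TPM. AMBP encodes a precursor that is cut into alpha-1 microglobulin and the protease inhibitor bikunin (ENSG00000106927, chr9:114060127-114078472, minus strand). It had 2807, 2826 and 2866 TPM in KO and 3530, 3493 and 3400 TPM in WT, with no overlap. Its change was 1.35 by TMM (SE 0.10, adjusted p = 1.01e-13), 0.24 with library totals, -0.23 with GC and length offsets and -0.29 on TPM.

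SERPINF1 encodes PEDF, a serpin that does not inhibit proteases and restrains vessel growth (ENSG00000132386, chr17:1761959-1777574, plus strand). It had 135, 138 and 126 TPM in Huh-7 KO and 160, 154 and 152 TPM in Huh-7 WT, again with each KO library lower. Its change was 1.27 by TMM (SE 0.09, adjusted p = 6.46e-15), 0.16 with library totals, -0.071 with GC and length offsets and -0.23 on TPM. AHSG encodes fetuin-A, which keeps calcium phosphate in solution (ENSG00000145192, chr3:186612923-186621318, plus strand). It had 318, 319 and 320 TPM in KO and 520, 540 and 514 TPM in WT, and its change was 0.93 by TMM (SE 0.10, adjusted p = 4.14e-10), -0.18 with library totals, -0.18 with GC and length offsets and -0.72 on TPM. For these 4 genes the sign was positive by TMM and negative on TPM.

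**Figure D3:**
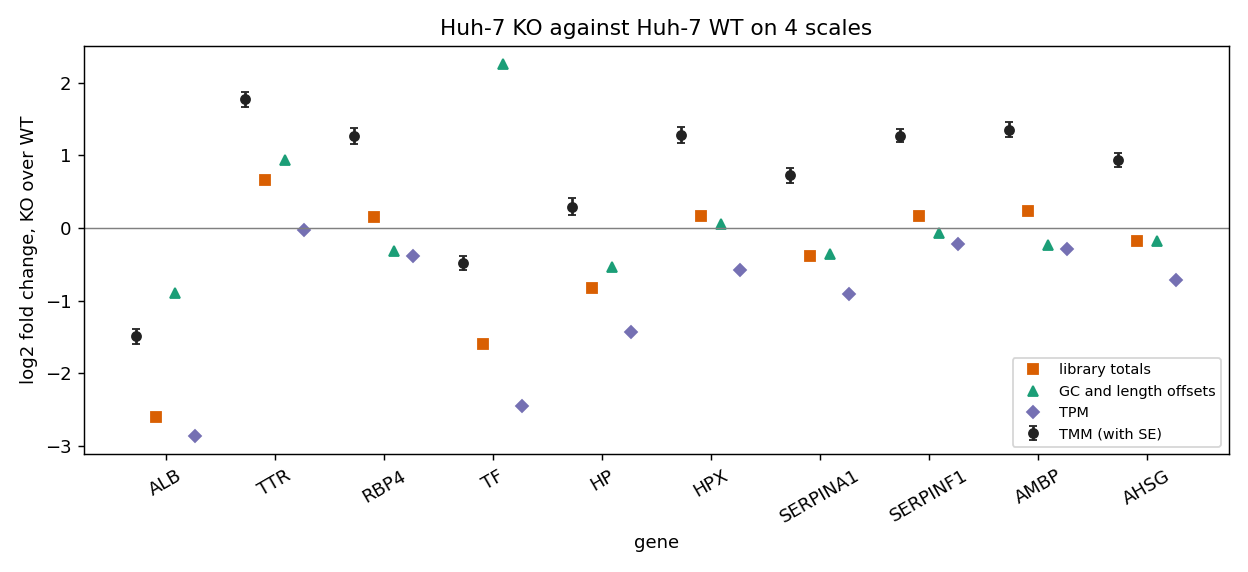
log2 fold change of each transcript in Huh-7 KO over Huh-7 WT by TMM-scaled counts (circles, with SE), library totals (squares), offsets for GC content and gene length (triangles) and TPM (diamonds). ALB lies below 0 on all 4 scales, from -2.86 to -0.90; TF is negative on 3 scales and 2.25 with GC and length offsets; the other 8 have values on both sides of 0.

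A change of scaling moves all genes of a comparison by nearly the same amount, so distances from the median gene of the same fit are nearly the same by TMM and by library totals by construction. ALB lay -1.19 from the median gene by TMM and -1.20 by library totals, and TF lay -0.18 and -0.19 from it. TTR lay 2.07 and 2.06 above it, AMBP 1.65 and 1.64, HPX 1.58 and 1.57, SERPINF1 1.57 and 1.56, RBP4 1.56 and 1.55, AHSG 1.23 and 1.22, SERPINA1 1.02 and 1.01, and HP 0.59 and 0.58. By TMM, 30.02% of all genes had a lower fold change than ALB. The distance depended on the offsets: ALB lay -0.60 from the median gene with GC and length offsets and -0.068 with GC offsets alone. With GC and length offsets TTR lay 1.24 above the median gene, and the other 7 apart from TF lay between -0.24 and 0.35 from it.

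The members' order within a library also changed between the groups. By mean TPM, Huh-7 KO ran AMBP, SERPINA1, RBP4, TTR, AHSG, TF, SERPINF1, HPX, ALB and HP, and no neighbours in this order overlapped. Huh-7 WT ran SERPINA1, AMBP, RBP4, TTR, TF, AHSG, ALB, SERPINF1, HPX and HP, where the ranges of TTR and TF overlapped and no others did. SERPINA1 stood below AMBP in every KO library and above it in every WT library. ALB was above SERPINF1 and HPX in every WT library and below them in every KO library. TF's place is uncertain because it overlaps SRPRB on the same strand.

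Counts relative to ALB in the same library need no scaling between libraries, but they keep any shift with GC content or gene length. ALB had the lowest GC content of the 10, at 41.3%. With GC and length offsets the log2 fold changes of ALB and AMBP were -0.90 and -0.23, against -1.49 and 1.35 by TMM. TTR had 7.40 to 8.62 counts per ALB count in Huh-7 KO, against 0.768 to 0.858 in Huh-7 WT. AMBP had 30.3 to 36.6 in KO and 4.46 to 4.90 in WT, and SERPINA1 had 29.5 to 34.5 in KO and 6.70 to 7.11 in WT. TF moved least with 3.10 to 3.64 in KO and 1.59 to 1.72 in WT. For each of the 9 the KO and WT ranges were apart and KO was higher. These ratios are a description: since ALB had the lowest fold change of the 10, each other member had to be higher relative to it.

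**Figure D4:**
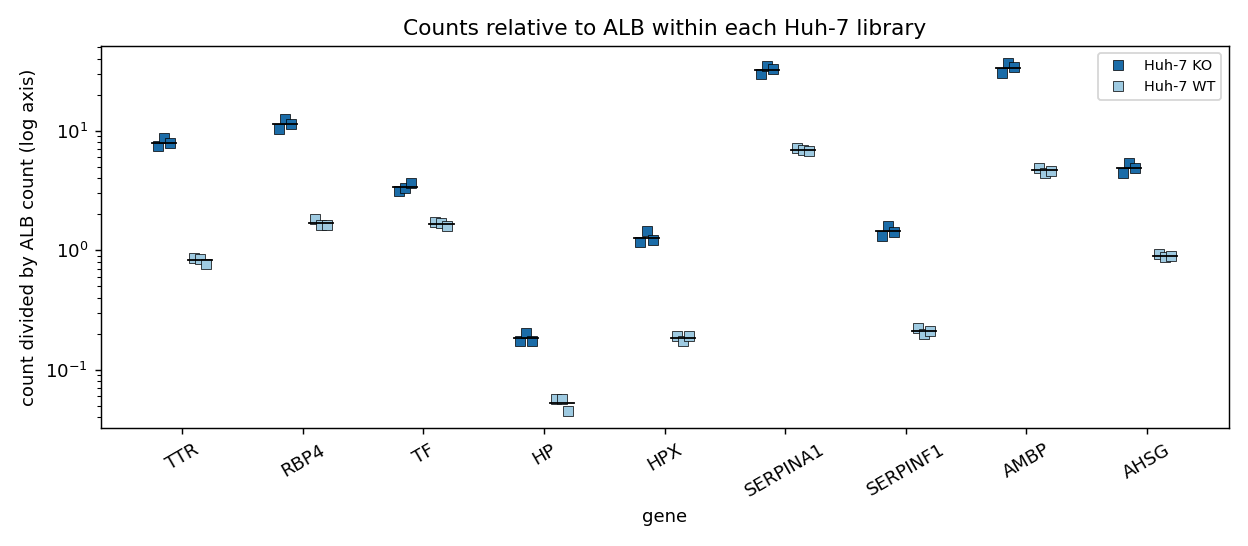
Counts of 9 transcripts divided by the ALB count of the same Huh-7 library, on a log axis; squares are libraries and short lines are means (KO left of WT for each gene). The KO libraries lie above the WT libraries for all 9, by the smallest step for TF (3.10 to 3.64 against 1.59 to 1.72). The counts are not adjusted for GC content or gene length.

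The sum of the 10 fell on the TPM scale, to 8081 in Huh-7 KO, against 12512 in Huh-7 WT, a KO over WT ratio of 0.646. As a share of all counts the sum averaged 1.38% in KO and 1.57% in WT, a ratio of 0.882. By TMM-scaled counts 8 members were called higher and 2 lower, and no sum was taken on that scale. AMBP averaged 9565 CPM in KO and 3753 CPM in WT there, and SERPINA1 9186 and 5562 CPM. ALB averaged 286 CPM in KO and 806 CPM in WT, and TF 959 and 1341 CPM. The fall of the sum was thus seen on TPM and share of counts and does not extend to TMM-scaled counts. ALB made up 0.762% to 0.854% of the members' TPM in KO and 3.57% to 3.83% in WT. The shorter mean gene length of Huh-7 KO libraries moved with every Huh-7 result above, and its part in them was tested only through the offsets for GC content and length.

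The KO effect was compared between the lines for members with a usable count in both, by subtracting the effect in Huh-7 from that in HCC-LM3. RBP4 gave -0.94 (SE 0.17, edgeR adjusted p = 8.12e-06), where 61.6% of all genes were called, 37.7% higher and 23.9% lower. That sign did not hold on other scales: it was 0.025 with library totals (adjusted p = 0.907), 0.48 with GC and length offsets and 0.55 on TPM. TF gave 0.78 (SE 0.34, adjusted p = 0.0456), 1.74 with library totals, 0.0086 with GC offsets and -1.76 with GC and length offsets. The TF counts of the lines may not be of the same transcript, as given above. SERPINF1, at -0.75 (SE 0.53, adjusted p = 0.282), and AMBP, at -0.51 (SE 0.48, adjusted p = 0.374), did not pass. SERPINA1 was called as well, but its HCC-LM3 counts of 0 to 3 carry that value.

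Other hepatocyte genes of the same kind were looked at as lists. Of 38 other plasma protein genes, AGT, CLU, LCAT, LRG1 and VTN were the 5 with a mean of at least 1 CPM in HCC-LM3, the same in KO and WT, and 27 reached it in Huh-7 KO and 32 in Huh-7 WT. In Huh-7, 33 were tested, and 15 were called higher and 8 lower in KO by TMM, but 3 higher and 23 lower with library totals. The median log2 fold change was 0.24 by TMM, beside -0.30 over all genes. With GC and length offsets 4 were called higher and 17 lower, and the median was -0.26, beside -0.30 over all genes. Of all genes in that comparison, 31.7% were called higher and 43.2% lower by TMM, and 12.1% higher and 65.3% lower with library totals. With GC and length offsets 19.8% of all genes were called higher and 40.2% lower. These shares are the background for each list below. ITIH2, a chain of the inter-alpha inhibitors to which bikunin is joined, fell by 2.42 on the log2 scale (edgeR adjusted p = 2.61e-18, as for the genes that follow), with 27.7 CPM in KO and 149 CPM in WT. A2M, a broad protease trap, fell by 1.64 (adjusted p = 4.77e-15). ITIH2 and A2M were also lower with library totals and with GC and length offsets, where they were -1.67 and -0.73. ORM2, an acid glycoprotein with a near-identical copy, ORM1, was higher by 1.71 (adjusted p = 3.84e-16) by TMM and by 0.60 with library totals, and lower by -0.10 with GC and length offsets, so its value is uncertain. In HCC-LM3, 2 of 33 were called, both higher, beside 14% of all genes called higher and 12.9% lower: AGT, the precursor of angiotensin, at 0.96 (adjusted p = 0.000444) and CLU, a secreted chaperone, at 0.31 (adjusted p = 0.0175, and 0.0653 with library totals).

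Of 25 transcription factors that act on such genes, 5 were called higher and 16 lower in Huh-7 KO by TMM, where 31.7% of all genes were called higher and 43.2% lower, and 2 higher and 20 lower with library totals. Their median log2 fold change was -0.92 by TMM, beside -0.30 over all genes. With GC and length offsets 3 were called higher and 17 lower, and the median was -0.92, beside -0.30 over all genes. PROX1, a factor of liver development, fell by 3.95 (adjusted p = 1.80e-16), with 1.91 CPM in KO and 29.5 CPM in WT. CREB3L3, a factor of the liver's endoplasmic reticulum that switches on acute-phase genes, fell by 3.39 (adjusted p = 1.29e-18), with 3.53 CPM in KO and 37.1 CPM in WT. NR2F2, a nuclear receptor, fell by 2.79 (adjusted p = 4.94e-16). All 3 were also lower with library totals and with GC and length offsets. With those offsets PROX1 was -1.81, CREB3L3 -4.12 and NR2F2 -1.89. In HCC-LM3, 7 of 25 were called higher and 1 lower in KO by TMM, but 3 higher and 1 lower with library totals and 2 higher and 2 lower with GC and length offsets. By TMM, 14% of all genes were called higher there and 12.9% lower. CREB3L3 was higher by 0.54 (adjusted p = 0.00221), with 10.7 CPM in KO and 7.35 CPM in WT, CEBPB by 0.49 (adjusted p = 0.00113) and CEBPD by 0.46 (adjusted p = 0.00923), the last not called with library totals (adjusted p = 0.0903). With GC and length offsets none of these 3 was called (adjusted p = 0.0530 for CREB3L3, 0.0820 for CEBPB and 0.418 for CEBPD).

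A further list joined acute-phase proteins, which the liver makes in inflammation as it does HP and SERPINA1, with the receptors and signalling genes that act upstream of them, and its members did not move in 1 direction in Huh-7 KO. Of 18 tested out of 20, 6 were called higher and 11 lower by TMM, and 3 higher and 12 lower with library totals. The median was -1.57 by TMM, beside -0.30 over all genes, of which 31.7% were called higher and 43.2% lower. With GC and length offsets 3 were called higher and 10 lower, and the median was -0.54, beside -0.30 over all genes. HAMP, the iron hormone hepcidin, rose by 3.41 (adjusted p = 2.14e-18), with 47.7 CPM in KO and 4.5 CPM in WT, and SAA4, a constitutive serum amyloid, rose by 2.52 (adjusted p = 6.82e-18). IL6R, the interleukin-6 receptor, fell by 2.46 (adjusted p = 4.57e-13), and IL1RAP, a co-receptor of interleukin-1, fell by 2.35 (adjusted p = 1.63e-10). These 4 kept their direction with library totals and with GC and length offsets, but not their size. With those offsets HAMP was 0.92, SAA4 1.05, IL6R -1.68 and IL1RAP -0.59. In HCC-LM3, 5 of 18 were called higher and 2 lower in KO, beside 14% and 12.9% of all genes, and complement C3, at 0.73 (adjusted p = 7.43e-06), had 380 CPM in KO and 229 CPM in WT.

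Of 31 genes of the secretory route that plasma proteins take, 8 were called higher and 17 lower in Huh-7 KO by TMM. With library totals 4 were called higher and 25 lower, against the same shares of all genes. The median of -0.31 by TMM was close to the -0.30 of all genes. With GC and length offsets 8 were called higher and 19 lower, and the median was -0.87, beside -0.30 over all genes, so that closeness depended on the scale. The largest falls were in coat and cargo proteins of transport from the endoplasmic reticulum: SEC24A at -2.94 (adjusted p = 8.97e-16), SEC24D at -2.52 (adjusted p = 1.80e-16), SEC31A at -2.51 (adjusted p = 1.06e-18) and the cargo receptor LMAN1 at -2.45 (adjusted p = 1.90e-15). All 4 were also lower with library totals and with GC and length offsets. In HCC-LM3 KO, 13 of 31 were called lower and none higher by TMM, beside 12.9% of all genes called lower and 14% higher, but with GC and length offsets 3 were called lower and 3 higher. LMAN1 there fell by 0.76 (adjusted p = 1.26e-05) and SRP72, a subunit of the signal recognition particle, fell by 0.77 (adjusted p = 7.30e-05). With GC and length offsets both stayed lower, at -0.36 for LMAN1 and -0.38 for SRP72.

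Likeness of pattern was measured over the 12 libraries as the root mean square difference of row-centred log2 CPM, where 0 is an identical pattern. Nearest to ALB were AFP at 0.53, the fetal relative of albumin, GPC3 at 0.54, a surface proteoglycan of liver tumours, and INS-IGF2 at 0.79, a readthrough gene that overlaps IGF2. TTR was nearest to ASGR2 at 0.31, APOA2 at 0.36 and APOC2 at 0.48. SERPINF1 was nearest to HPN at 0.14, HAAO at 0.22 and FABP1 at 0.22, and RBP4 to DAO and LINC01762, both at 0.22, and DUSP26 at 0.23. Within the set the closest pair was TTR and AMBP at 0.41, and ALB's closest was TF at 0.78. The neighbours of RBP4 were low genes: DAO, LINC01762 and DUSP26 averaged 13.8 to 19.9 CPM in Huh-7 KO and 5.48 to 7.54 CPM in Huh-7 WT, and were at 0 in HCC-LM3. Apart from RBP4, the genes named here were higher in Huh-7 and at or near 0 in HCC-LM3, where the distance depends on the prior count of 2 added before the logarithm, and the contrast between the lines sets most of each pattern.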

How the data were processed

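RNA was extracted with TRIzol and sequenced on an Illumina NovaSeq, per the labels' protocols. Per the file headers, the authors deposited 1 table that gives, for each gene, its length in bases and, for each library, an expected count and a TPM. The expected counts are not normalized, and 7.49% to 13.3% of them are not whole; the deposited TPM values sum to 977632 to 998831 per library. The mouse builds mm9 and mm8 appear beside Bowtie 0.12.2 in the submitters' processing notes, although the identifiers are human. Not given in the sources used here are the counter, its strand setting and the human build, so overlapping genes and near copies are uncertain. Positions are from GENCODE 29 (GRCh38), which held 99.5% of the identifiers.

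Counts were rounded and fitted in edgeR 4.0.16 (R 4.3.3): filterByExpr with 4 groups (16537 genes kept), TMM, and a robust quasi-likelihood fit to all 12 libraries with 8 residual degrees of freedom. P-values were two-sided and adjusted by Benjamini-Hochberg over all genes tested, with a threshold of 0.05, and the SE comes from the F statistic. An exact test of 3 against 3 libraries could not go below 0.1. On simulated data with 200 changed genes, 98% were recovered in the HCC-LM3 KO comparison, with 7 false calls. In the Huh-7 one 95.5% were recovered, with 11 false calls. Recovery under a shift of counts to short genes, as seen in Huh-7 KO, was not tested. The changed genes were drawn only from genes above a set level, and all simulated libraries shared the same spread. Recovery at the low counts that most members had in HCC-LM3 was therefore not tested either. The TPM scale was fitted with limma 3.58.1 on log2(TPM + 0.1), where a fold of a low gene is understated. That fit shared the spread of a gene over all 12 libraries, so HCC-LM3 values near 0 could widen it for Huh-7. GC and length offsets were smooths per library (mgcv 1.9.3), with GC content known for 99.7% of genes tested. Other alternatives were library totals, DESeq2 1.42.0 size factors and test, limma-voom, other filters and thresholds, each line alone, the replicate number as a block, and leaving out each library. Offsets for GC content alone, HP summed with HPR, and the bounds and ratios between the lines on library totals were chosen after seeing the data. Replicates of a group differed by more than counting noise in every pair.

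The members and gene lists were chosen with earlier results of these data known. The naming rule took all members in each comparison, with METTL5 as a check, although the text gives values only where a member had a usable count, and from each list up to 4 called genes that averaged 1 CPM or more and changed most; not all of these are given. Other genes named are marker genes, pattern neighbours, or genes chosen after their values were seen.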

Additional observations from a re-analysis of the deposited data

Results flagged for a closer look

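The KO effect on RBP4 differed between the lines by the test of the difference itself, at -0.94 (HCC-LM3 effect minus Huh-7 effect, SE 0.17, edgeR adjusted p = 8.12e-06). The log2 fold change was 0.32 in HCC-LM3 and 1.26 in Huh-7, on TMM-scaled counts, and the difference was 0.025 with library totals alone and 0.48 with offsets for gene length and GC content. The KO effect on TF differed by 0.78 (SE 0.34, edgeR adjusted p = 0.0456), with 0.30 in HCC-LM3 and -0.48 in Huh-7, from 9.06 to 17.1 estimated counts per library in HCC-LM3. Of 24 alternatives, 7 called it with that sign and 2 gave the opposite sign. It was 1.74 with library totals, 0.0086 with GC offsets alone, -1.76 with GC and length offsets and 0.75 with the replicate block (adjusted p = 0.0760). On leaving out 1 library it was 0.44 to 0.98, the lowest without HCC-LM3 WT replicate 2 (adjusted p = 0.303). The TF counts of the lines may not be of the same transcript, which also limits this difference. The shift of Huh-7 KO counts to short genes moves with both values, and its part in them was tested only through those offsets.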

How the results depend on the processing

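The fall of ALB in Huh-7 KO was called under all 25 alternatives run, and RBP4 was called lower in HCC-LM3 than in Huh-7 under all 24. Most other members passed the filter only through Huh-7, so their calls between the lines say nothing about stability. In Huh-7 KO against WT, 214 values kept sign and call, 10 lost the call and 26 reversed. With library totals HP was -0.82, SERPINA1 -0.39 and AHSG -0.18, and 3 members were called higher and 5 lower in place of 8 and 2. With GC and length offsets RBP4 was -0.31, TF 2.25, HP -0.54, SERPINA1 -0.36, SERPINF1 -0.071, AMBP -0.23 and AHSG -0.18 (2 higher, 6 lower), and with the replicate block added -0.31, 2.26, -0.54, -0.36, -0.070, -0.23 and -0.18 (2 higher, 6 lower). With GC offsets alone TF was 0.63 (1 lower). On TPM, TTR was -0.022, RBP4 -0.39, HP -1.43, HPX -0.58, SERPINA1 -0.90, SERPINF1 -0.23, AMBP -0.29 and AHSG -0.72 (0 higher, 6 lower). DESeq2 size factors and the DESeq2 test each left 1 lower, and a log2 fold of at least 1 left 5 higher and 1 lower. The cause of these moves was not tested.

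In HCC-LM3 KO against WT, members called higher numbered 2 by DESeq2, limma-voom and the stricter filter, 0 with the line alone and at an adjusted p under 0.01, and 0 to 3 on leaving out 1 library (3 without WT replicate 1). All genes called numbered 4440, against 2842 with GC and length offsets, 2356 with GC offsets, 2000 on TPM, 2622 under 0.01, 282 with a log2 fold of at least 1, and 2743 to 6136 on leaving out 1 library.

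For the KO effect in HCC-LM3 less that in Huh-7, RBP4 was 0.025 with library totals, 0.48 with GC and length offsets, 0.48 with the replicate block added and 0.55 on TPM. TF was -1.76 and -1.84 with GC and length offsets without and with the block. SERPINF1 was 0.21 with totals, 0.47 and 0.46 with those offsets without and with the block, and 0.62 on TPM. AMBP was 0.45, 0.93, 0.91 and 0.69 in the same order, and 0.0069 with GC offsets. Members called higher numbered 2, against 0 with DESeq2 size factors, by DESeq2 and under 0.01, 1 by limma-voom, the stricter filter, the replicate block, GC offsets and a log2 fold of at least 1, 8 on TPM, and 0 to 2 on leaving out 1 library. Members called lower numbered 1, against 0 with totals, on TPM and with a log2 fold of at least 1, and 2 by limma-voom.

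The summed TPM of Huh-7 KO was 8016 without ALB, and the KO over WT ratio of the sum was 0.882 by share of counts in place of 0.646. Neither ratio extends to TMM-scaled counts, by which 8 members were called higher and 2 lower. The replicate block alone changed no member's call in either KO comparison; RBP4 was 0.33 (adjusted p = 0.0599) in HCC-LM3. Same-numbered libraries showed no steady common deviation (correlations of -0.20, 0.23 and -0.45 in HCC-LM3, -0.05, -0.05 and 0.09 in Huh-7). With 3 libraries per group, such correlations cannot exclude a pairing by number. Depth limits 9 members in HCC-LM3, where counts of 0 to 17 show no change of ordinary size.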

Other observations

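AFP, which encodes the fetal counterpart of albumin, lies close to ALB on chromosome 4 (ALB at 73397114 to 73421412, AFP at 73431138 to 73456174, both on the plus strand), and it was looked at after its values had been seen. AFP averaged 665 ± 36.5 CPM in Huh-7 KO and 1934 ± 100 CPM in Huh-7 WT (SD, n = 3 each, TMM-scaled), a log2 difference of -1.54 (SE 0.11, edgeR adjusted p = 7.42e-15), beside -1.49 for ALB. With library totals AFP was at -2.65 and ALB at -2.60, and with offsets for gene length and GC content AFP was at -1.15 and ALB at -0.90. In HCC-LM3, AFP had at most 2 counts in any KO library and at most 2 in any WT library. GC, which encodes the vitamin D carrier of the same family and lies farther off on chromosome 4, averaged 2.75 ± 0.95 CPM in Huh-7 KO and 3.54 ± 0.22 CPM in Huh-7 WT, a log2 difference of -0.35 (SE 0.30, adjusted p = 0.292). With library totals the gene GC was at -1.46 (edgeR adjusted p = 0.000446), and with offsets for gene length and GC content at -0.15 (adjusted p = 0.687), so its call depended on the scale. Albumin and its fetal relative were thus lower together in Huh-7 KO on each of these scales, and whether they share a cause was not tested.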
